A study of Mus musculus with 24 samples.

Results

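The 10 genes that define steroid-producing Leydig cells, or are carried at high level by them, were followed through RNA-seq of sorted mouse spermatogonia: Nr5a1, Lhcgr, Star, Cyp11a1, Hsd3b1, Hsd3b6, Cyp17a1, Insl3, Ren1 and Aldh3a1. They were taken by symbol, and all 10 were found in both expression tables, which list 23333 genes between them (23177 for the Zbtb16 series and 21688 for the Sox3 series). Spermatogonia were isolated from postnatal day 7 testes by immunomagnetic cell sorting with anti-THY1 beads, for undifferentiated spermatogonia, or anti-KIT beads, for differentiating spermatogonia, and 3 libraries were made for each of 8 groups, giving 24 in all. The comparisons asked how far these somatic genes followed the KIT+ fraction and whether their level there differed with genotype.

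In the first table, mice homozygous for the luxoid allele of Zbtb16 (Zbtb16 lu/lu, called null) were set against wild-type (WT) mice, giving the groups WT THY1+, WT KIT+, null THY1+ and null KIT+. The luxoid allele is present in every cell of the animal, Leydig cells included. In the second table, mice with a conditional knockout of Sox3 (cKO), made with Ddx4-Cre to target male germ cells, were set against mice labelled WT, in the same fractions. Leydig cells were not the target of this knockout, and whether they carried the deletion or expressed Sox3 was not tested. All mice were on a C57BL/6J background. For the Zbtb16 mice the methods name both WT and heterozygous littermates as controls, for the isolations of both series they name WT littermates, and the labels say WT. The testes of 3 mice were pooled for each isolation, so that p-values measure the spread between pooled isolations and not between single mice.

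Leydig cells lie between the seminiferous tubules and turn cholesterol into androgen when luteinizing hormone binds its receptor. STAR brings cholesterol into the mitochondrion, CYP11A1 cuts its side chain to give pregnenolone, 3β-hydroxysteroid dehydrogenase makes progesterone from it and CYP17A1 makes androgens. Leydig cells carry KIT on their surface, as differentiating spermatogonia do, so beads that bind KIT can retain both cell types. The marker sums bear on what each fraction held: 8 of 8 germ cell markers (Ddx4, Dazl, Mael and others) were present in every group, with a summed level of 730.4 to 1439 FPKM per library, where FPKM is a read count scaled to the length of the gene's exons and to the depth of the library.

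Before the levels are given, 2 features of the sequences limit what the values of 3 of the genes can mean. Hsd3b1 (chr3:98852194-98859794, minus strand, GRCm38) and Hsd3b6 (chr3:98805504-98814443, minus strand) are neighbouring copies of the 3β-hydroxysteroid dehydrogenase gene whose coding sequences are both 1119 bases long and identical at 1007 positions (90.0%). Of all 50-base stretches of Hsd3b6 transcripts, 15.5% also occur in another Hsd3b gene, and 2.11% occur in Hsd3b1. For Hsd3b1 the share found in any other Hsd3b gene was 2.16%. Both stretches of 50 or more coding bases that Hsd3b1 shares with Hsd3b6 are shown because a read of 50 bases from them cannot be assigned to 1 gene. They lie at coding bases 250 to 321 and 755 to 818 of Hsd3b1 (GENCODE transcripts).
Hsd3b1 250 to 321: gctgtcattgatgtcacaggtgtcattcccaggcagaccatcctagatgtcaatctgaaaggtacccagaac
Hsd3b1 755 to 818: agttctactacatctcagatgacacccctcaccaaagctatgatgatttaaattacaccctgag

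Insl3 (chr8:71689214-71690575, plus strand) lies at the end of Jak3 on the same strand, and 64.8% of its 623 exon bases are also annotated as Jak3 exon, so reads there belong to either gene. RefSeq gives a promoter window (250 bases before to 50 after the start, GRCm38.p6) for 6 of the 10 genes: Cyp11a1, Hsd3b1, Hsd3b6, Insl3, Lhcgr and Ren1. These windows were searched on both strands for CAAGGTC and CAAGGCC, core sequences of the type bound by NR5A1, and for TATAAA. Of the 6, only Insl3 held either NR5A1-type sequence, and it held both, where 9.88% of all 32851 windows held at least one. TATAAA was in the window of Ren1 alone among the 6, against 13.6% of all windows. The stretch of the Insl3 window upstream of its annotated start (chr8:71689102-71689211, plus strand) and that around the Ren1 match (chr1:133350634-133350663, plus strand) are shown with the matches in capitals. These begin 137 and 57 bases before the RefSeq start of Insl3, and TATAAA begins 29 bases before that of Ren1. A match is a string of letters and was not tested as a binding site.
Insl3: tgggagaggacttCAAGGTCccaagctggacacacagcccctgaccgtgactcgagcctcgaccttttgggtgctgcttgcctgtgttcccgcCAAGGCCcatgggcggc
Ren1: tacatggtgtgTATAAAagaaggctcaggg

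The fraction labels were checked first. In the Zbtb16 table, Thy1, which encodes the antigen of one bead, was at 3.29 to 4.67 FPKM in the 6 THY1+ libraries and at 0.156 to 0.666 in the 6 KIT+ libraries, and Kit was at 13.8 to 21.1 against 51.7 to 74.8 FPKM. In the Sox3 table, both genes went against the labels of the 6 WT libraries: Thy1 was at 0.213 to 0.254 FPKM in WT labelled THY1+ and at 3.59 to 4.06 in those labelled KIT+, and Kit was at 45.6 to 80.1 against 13.0 to 18.8 FPKM. The 6 cKO libraries followed their labels, with Thy1 at 3.61 to 5.26 FPKM in THY1+ and 0.244 to 0.292 in KIT+. The labels were kept, these libraries are called WT libraries labelled THY1+ or KIT+ throughout, and genotypes are compared both as labelled and between libraries with the same marker levels. The genotypes showed in their own genes: Zbtb16 was at 42.0 to 58.7 FPKM in WT THY1+ and 15.6 to 18.2 in null THY1+ libraries, and 14.4 to 23.0 in WT KIT+ and 6.11 to 6.69 in null KIT+ libraries. Sox3 was at 6.28 to 24.4 FPKM in the 6 WT libraries of its table, and the 6 cKO libraries held 0 to 2 reads each. Library depth, recovered from the low FPKM values, was 25.98 to 35.13 M reads (M, mega) in the Zbtb16 table, 28.21 to 31.84 M reads for replicate 1 of the Sox3 table and 11.03 to 14.94 M reads for its replicates 2 and 3.

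The steroidogenic genes were among the most abundant transcripts of the WT KIT+ fraction and low in the THY1+ fraction. Ranked by mean FPKM among 23177 genes in WT KIT+, Hsd3b1 stood at place 38, Cyp17a1 at 65, Cyp11a1 at 100, Insl3 at 104, Ren1 at 211 and Star at 478. Lhcgr (1815), Aldh3a1 (2594) and Nr5a1 (2753) followed, and Hsd3b6 was at 15702. Neighbours in this order overlapped in their 3 libraries except Star with Lhcgr and Nr5a1 with Hsd3b6. Together the 10 genes took 0.333 to 0.661% of the reads of a WT KIT+ library and 0.0250 to 0.0378% of those of a WT THY1+ library, as set out gene by gene in the plot of levels in the Zbtb16 series.

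**Figure D1:**
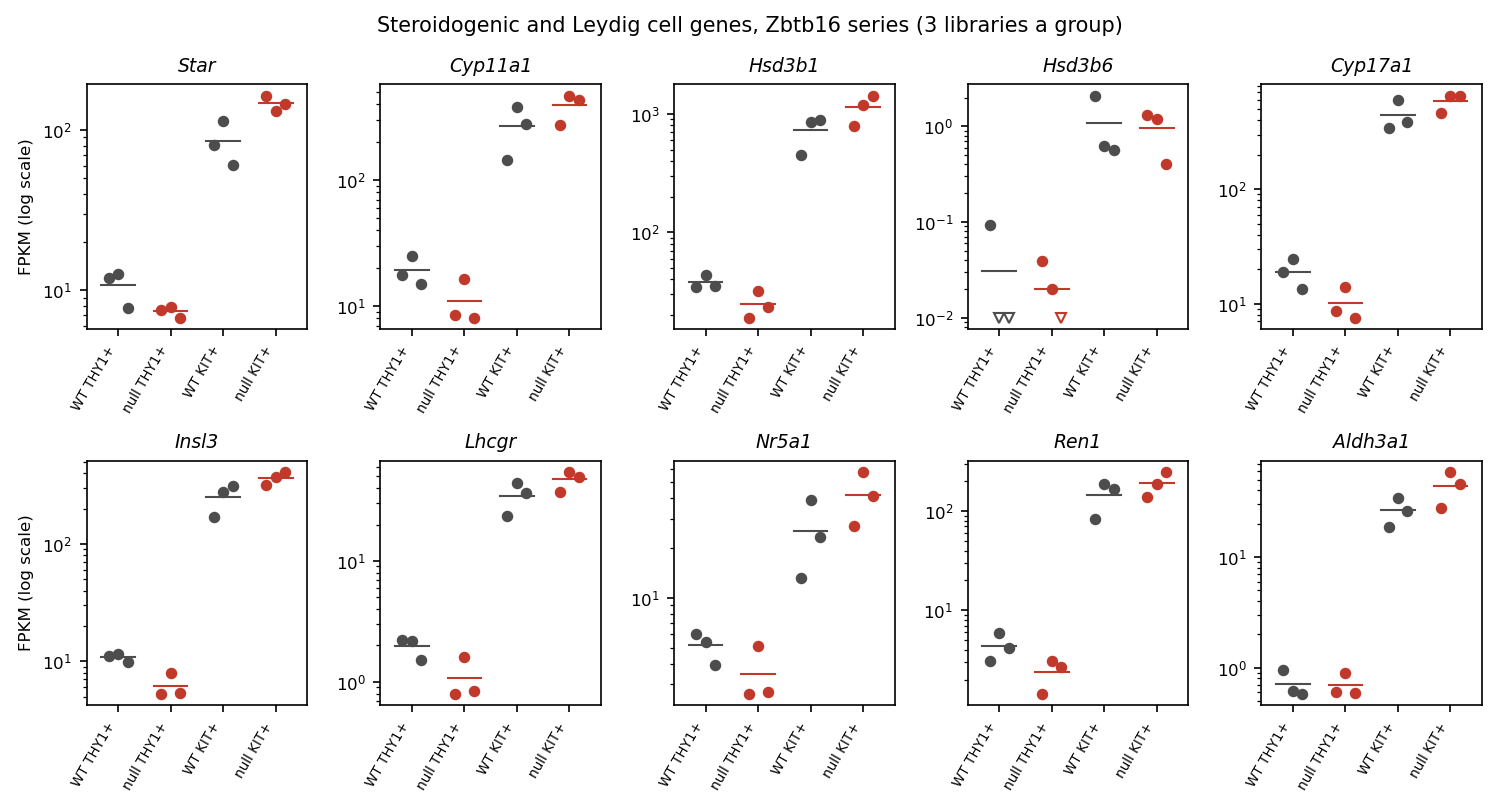
FPKM on a log scale of the 10 genes in the 12 libraries of the Zbtb16 table, 1 point per library, with the group mean as a bar (3 libraries a group; open triangles at the foot of the Hsd3b6 panel are libraries listed at 0). In each panel, all KIT+ libraries lie above all THY1+ libraries, and WT and null libraries of the KIT+ fraction overlap for 8 of the 10 genes.

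Nr5a1 (chr2:38692656-38714542) encodes steroidogenic factor 1, the nuclear receptor that turns on most steroidogenic genes, and is also expressed by Sertoli cells. It was at 6.08, 5.44 and 3.95 FPKM in the WT THY1+ libraries and at 13.2, 38.8 and 23.3 in the WT KIT+ libraries. In null mice it was at 2.62, 5.11 and 2.70 FPKM in THY1+ and at 27.1, 57.1 and 40.9 in KIT+. The fractions did not overlap in either genotype, and the difference was the smallest of the 10 in WT mice: 2.15 ± 0.39 (log2, SE, n = 3 a group; limma, adjusted p = 0.00195). Lhcgr (chr17:88716481-88791990), the receptor for luteinizing hormone, was at 2.21, 2.19 and 1.51 FPKM in WT THY1+ and 23.4, 43.7 and 36.3 in WT KIT+. Its null values were 0.793, 1.62 and 0.847 FPKM in THY1+ and 37.5, 54.3 and 49.9 in KIT+. The receptor was thus 4.03 ± 0.29 (log2) higher in the KIT+ fraction of WT mice (adjusted p = 2.22e-06).

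Star (chr8:25806555-25815982), which carries cholesterol into mitochondria, was at 11.9, 12.6 and 7.77 FPKM in WT THY1+ and 80.9, 114 and 60.5 in WT KIT+. In null libraries it was at 7.58, 7.88 and 6.75 FPKM in THY1+ and 164, 132 and 145 in KIT+. Every null KIT+ library stood above every WT KIT+ library, while the THY1+ groups overlapped. Cyp11a1 (chr9:58006411-58027023), the side-chain cleavage enzyme, was at 17.6, 25.0 and 15.1 FPKM in WT THY1+ and 144, 385 and 277 in WT KIT+. Its null values were 8.44, 16.4 and 8.10 FPKM in THY1+ and 273, 470 and 436 in KIT+. Replicate 1 was the lowest of its KIT+ group in both genotypes. Cyp17a1 (chr19:46667165-46673172), the 17α-hydroxylase and lyase of androgen synthesis, was at 19.1, 24.7 and 13.4 FPKM in WT THY1+ and 344, 604 and 385 in WT KIT+. In null libraries it was at 8.67, 13.9 and 7.55 FPKM in THY1+ and 465, 650 and 656 in KIT+. Between the WT fractions the log2 difference was 2.95 ± 0.22 for Star, 3.72 ± 0.38 for Cyp11a1 and 4.54 ± 0.29 for Cyp17a1 (limma, largest adjusted p of the 3, 3.15e-05).

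Hsd3b1, the main 3β-hydroxysteroid dehydrogenase of mouse gonads and adrenals, was at 34.7, 43.2 and 35.5 FPKM in WT THY1+ and 452, 851 and 885 in WT KIT+. Its null values were 19.0, 31.7 and 23.4 FPKM in THY1+ and 790, 1192 and 1426 in KIT+. The WT fractions differed by 4.21 ± 0.29 (log2; limma, adjusted p = 1.52e-06). Hsd3b6, the isoform known for adult Leydig cells, was far below it, at 2.10, 0.631 and 0.564 FPKM in WT KIT+ and 1.33, 1.19 and 0.408 in null KIT+. The WT THY1+ libraries held 5, 0 and 0 reads of Hsd3b6 and the null THY1+ libraries 2, 1 and 0. Summed over each group, 178 against 5 reads gave a ratio of reads per depth of 34.9 in WT mice (exact 95% interval 14.7 to 109), and 148 against 3 gave 49.6 in null mice (16.7 to 243), where the intervals cover counting error only. These ratios moved with single libraries, left out as a choice made after seeing the data. The WT ratio was 19.8 (8.10 to 62.9) without KIT+ replicate 1, 23.0 (9.66 to 71.6) without THY1+ replicate 3 and, against 0 reads, at least 39.1 without THY1+ replicate 1, with 3 reads over the group as the floor. The null ratio was 100.3 (17.7 to 3987) without THY1+ replicate 1, which left 1 read, and 32.1 (10.8 to 157) without THY1+ replicate 3. Since Hsd3b6 passed the filter on low values only through its KIT+ libraries, its fraction difference carries no weight beside the other 9 genes. In the KIT+ libraries of this table it was 0.0286 to 0.465% of the Hsd3b1 level, and WT replicate 1, with the highest Hsd3b6, had the lowest Hsd3b1 of the 6.

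Insl3 encodes the Leydig cell peptide that drives testis descent, and it was at 11.1, 11.4 and 9.88 FPKM in WT THY1+ and 171, 275 and 310 in WT KIT+. In null libraries it was at 5.24, 7.93 and 5.31 FPKM in THY1+ and 316, 373 and 409 in KIT+. The null libraries stood below all WT libraries in the THY1+ fraction and above all of them in the KIT+ fraction. Ren1 (chr1:133350510-133360325), which encodes renin, was at 3.07, 5.86 and 4.14 FPKM in WT THY1+ and 82.7, 185 and 169 in WT KIT+. Its null values were 1.44, 3.09 and 2.69 FPKM in THY1+ and 137, 186 and 247 in KIT+. Renin showed the largest fraction difference of the 10 in null mice, 6.27 ± 0.37 (log2; limma, adjusted p = 5.86e-07). Aldh3a1 (chr11:61207537-61218421), an aldehyde dehydrogenase, was at 0.940, 0.617 and 0.575 FPKM in WT THY1+ and 18.5, 34.5 and 26.1 in WT KIT+. In null libraries it was at 0.603, 0.898 and 0.591 FPKM in THY1+ and 27.8, 58.6 and 45.3 in KIT+. In WT mice its fraction difference was 5.01 ± 0.30 (log2; limma, adjusted p = 6e-07), within its SE of that of Ren1, 4.99 ± 0.37.

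Between fractions, all 10 genes passed the test as higher in KIT+ (adjusted p at most 0.05 and at least 1.5-fold), in WT mice, where 7.21% of 22374 genes tested did so, and in null mice, where 13.2% did. All KIT+ libraries lay above all THY1+ libraries for the 10 genes, as they did for 18.5% of all genes in WT and 21.3% in null mice. The median log2 difference of the 10 was 4.12 in WT and 5.44 in null mice, and that over all genes tested was -0.03 and -0.05. Hsd3b6 is counted in these values, but it passed the filter on low values only through its KIT+ libraries. Its call and its separation therefore carry no weight. The fraction difference itself differed between genotypes by 1.28 to 1.47 for 8 of the genes and by 0.73 for Aldh3a1, while for Hsd3b6 it was near 0. None of these interaction terms passed the test (limma, adjusted p from 0.0930 for Insl3 to 0.999 for Hsd3b6), where 0.0313% of all genes did. This count depended on the processing: scaled to 8 germ cell markers, 6 of the 10 passed, beside 12.6% of all genes in either direction, and without null KIT+ replicate 1 1 passed (Insl3), beside 3.88%. With the replicate number as a block 8 of the 10 passed, beside nearly as large a share of all genes as with the scaling. The counts over all genes are given with the dependence on processing. Same-numbered libraries did not all deviate together here (r of -0.0278 to 0.520), so the numbers were not taken to pair these samples. Without block or scaling, 8 of the 10 were at an unadjusted p under 0.05, all positive, against 12.9% of all genes. The 3 smallest were Insl3 (limma, unadjusted p = 0.000765), Star (0.00134) and Cyp17a1 (0.00656).

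Other genes were taken from lists of related genes and set beside the 7.21% of all genes called higher and the 14.0% called lower in WT KIT+. Of 5 electron donors, which pass electrons to the steroidogenic P450 enzymes, 2 rose in WT KIT+: Fdx1 by 1.85 ± 0.16 and Fdxr by 1.85 ± 0.30 (log2). Of 10 cholesterol supply genes, 2 rose (Scarb1, the receptor that takes up cholesterol from lipoproteins, by 1.92, and Soat1, which esterifies cholesterol, by 0.75), and Npc1 fell by 0.65. Among 8 tested genes of other steroid enzymes, Srd5a2 (1.89), Akr1c14 (2.82-fold) and Srd5a1 (1.44), which reduce androgens, rose and Cyp19a1, the aromatase, fell by 0.82. Of 20 genes of luteinizing hormone signalling and Leydig cell regulation, whose median was -0.12, 3 rose, among them Pde8b (1.29) and Nr0b1 (1.05), and 3 fell, among them Nr5a2 (by 1.43) and Lhx9 (by 1.06). The adrenal-type genes were low but also higher in KIT+, with 3 of 4 tested past the threshold: Mrap (2.45), Cyp21a1 (1.88) and Cyp11b1 (1.13). Of 4 fetal Leydig markers Crhr1 rose (2.12) and Dlk1 and Thbs2 fell, and of 4 tested adult Leydig markers Vcam1 (1.92) and Hsd17b3 (0.98), the enzyme that makes testosterone, rose and Hsd11b1 fell. In the Sox3 series Hsd17b3 did not follow Kit. Its mean was 13.8 FPKM in WT labelled THY1+ and 14.3 in WT labelled KIT+, and 17.9 in cKO KIT+ and 16.2 in cKO THY1+.

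Marker sums of other somatic cells moved with the fractions, and their part in the result was not tested. Counts of higher or lower markers in this paragraph are of those called. They stand beside 7.21% of all genes called higher and 14.0% called lower in WT KIT+. The summed level of 8 macrophage markers was 873 to 1004 FPKM in WT THY1+ and 6.13 to 7.70 in WT KIT+ libraries, with 8 of 8 lower in KIT+, and 6 of 7 mast cell markers were lower in KIT+. The sum of 11 peritubular and stromal markers was 425 to 597 in WT THY1+ and 174 to 315 in WT KIT+, with 6 lower and 0 higher. The sum of 10 Sertoli cell markers was 30.0 to 56.3 and 53.3 to 58.7 FPKM, with 3 higher and 1 lower. Since these are bulk libraries, fewer cells of a type and less RNA per cell cannot be told apart, here or in any result below.

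In the KIT+ fraction, 9 of the 10 genes were on average higher in null than in WT mice, by 0.43 to 0.83 (log2), and none passed the test, where 0.192% of 22374 genes did as higher. The largest differences were those of Star, 0.83 ± 0.22 (limma, adjusted p = 0.164), Nr5a1, 0.80 ± 0.39 (adjusted p = 0.319), Aldh3a1, 0.71 ± 0.30 (adjusted p = 0.264) and Hsd3b1, 0.66 ± 0.29 (adjusted p = 0.275). The median of the 10 was 0.60, beside 0.01 over all genes tested. At an unadjusted p under 0.05 there were 4 genes (Star, Insl3, Aldh3a1 and Hsd3b1), all higher, against 10.5% of all genes. Between same-numbered libraries, 9, 10 and 9 of the 10 genes were higher in the null library of replicates 1, 2 and 3. All 3 null libraries stood above all 3 WT libraries for Star and Insl3, where 8.73% of all genes did so. Same-numbered libraries deviated together in this comparison (r of 0.362 to 0.520 over genes), and with the replicate number as a block Star passed the test (limma, adjusted p = 0.0393) and the other 9 did not, against 2.29% of all genes called in either direction.

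In the THY1+ fraction, where the 10 genes are near the bottom of their range, all 10 were on average lower in null mice, by 0.02 (Aldh3a1) to 0.92 (Cyp17a1), and none passed the test (limma, smallest adjusted p = 0.0518, Insl3), where 1.26% of genes did as lower. Cyp17a1 differed by -0.92 ± 0.29, Lhcgr by -0.85 ± 0.29, Ren1 by -0.85 ± 0.37, Cyp11a1 by -0.85 ± 0.38 and Insl3 by -0.82 ± 0.22, and the median of the 10 was -0.73, beside -0.03 over all genes tested. At an unadjusted p under 0.05 there were 7 genes, against 11.6% of all genes as lower. All 3 null libraries stood below all 3 WT libraries for Hsd3b1 and Insl3, against 14.1% of all genes. Same-numbered libraries deviated together here as well (r of 0.133 to 0.475), and with the replicate block 6 genes passed the test as lower: Ren1 (limma, adjusted p = 0.00880), Cyp17a1 (0.0105), Insl3 (0.0162), Lhcgr (0.0246), Cyp11a1 (0.0273) and Hsd3b1 (0.0317), against 8.85% of all genes called in either direction. Without null THY1+ replicate 2, 3 genes passed without the block (Cyp17a1, Insl3 and Lhcgr), against 3.68% of all genes in either direction.

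Many related lists and other cell types also moved in the null mice, and their part in the result was not tested. Over all genes tested, the median difference was near 0 in each fraction. In the KIT+ fraction, 19 of 20 genes of luteinizing hormone signalling were on average higher in null mice (median 0.63, log2), as were 5 of 5 electron donors (0.45), 4 of 4 adrenal-type genes (0.62), 4 of 4 fetal Leydig markers (0.82) and 4 of 4 adult Leydig markers (0.55), and 0 genes of these lists passed the test. Of the Leydig markers, Hsd17b3 hardly differed (mean 15.4 FPKM in WT KIT+ and 15.2 in null KIT+). Ptgds (0.294 and 0.444) and Mc2r (0.0880 and 0.199) were at low levels. The same held for 8 of 8 endothelial markers (median 0.58), whose sum was 16.8 to 32.6 FPKM in WT KIT+ and 22.6 to 40.2 in null KIT+ libraries, and 10 of 11 peritubular and stromal markers (median 0.66), with sums of 174 to 315 and 274 to 502. The Sertoli cell sum was 53.3 to 58.7 in WT KIT+ and 68.0 to 76.6 in null KIT+, without overlap, and 6 of 8 germ cell markers were lower (median -0.17). The sum of 5 differentiating spermatogonia markers was 305 to 317 FPKM in WT KIT+ and 228 to 262 in null KIT+, without overlap, with 0 of 5 called, 3 lower and a median of -0.24. Stra8, which germ cells need to enter meiosis, had the smallest p of these (-0.90 ± 0.21, log2; limma, adjusted p = 0.133). Mast cell markers, low in KIT+, were lower in null mice, from -0.04 (Tpsab1) to -0.80 (Mcpt4), except Hdc (0.58), and none was called. The genotypes overlapped in the sums of cholesterol supply genes (142 to 203 FPKM in WT KIT+, 179 to 246 in null KIT+) and other steroid enzymes (31.7 to 42.1 and 40.6 to 51.8). In the THY1+ fraction of null mice, 9 of 10 Sertoli (median -0.58), 10 of 11 stromal (-0.60), 6 of 8 endothelial (-0.50) and 8 of 8 macrophage markers (-0.77) were lower, and 7 of 8 germ cell markers higher (0.31). Of 7 tested mast cell markers, 6 were also lower (median -1.39), and 2 were called, Mcpt4 (fell by 1.42) and Cpa3 (fell by 1.39). Their sum was 28.7 to 50.9 FPKM in WT THY1+ and 11.9 to 22.2 in null THY1+, without overlap. In THY1+, Cd68, a macrophage marker, fell by 0.79, and Nr5a2, a nuclear receptor related to Nr5a1, rose by 1.11 ± 0.15 (limma, adjusted p = 0.00260).

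In the Sox3 table the 10 genes followed Kit and Thy1 and not the fraction labels of the WT libraries, as the plot of levels in the Sox3 series shows. All 10 were lower in the WT libraries labelled KIT+ than in those labelled THY1+, by 2.15 (Nr5a1) to 4.96 (Ren1) on the log2 scale with a median of -4.16, and all 10 passed the test, where 6.53% of 21212 genes did as lower. In cKO mice all 10 were higher in KIT+ than in THY1+, by 3.02 ± 0.26 (Nr5a1) to 6.07 ± 0.47 (Ren1) with a median of 5.13, and all 10 passed, where 10.5% of genes did as higher. In both genotypes the groups did not overlap for the 10 genes, where all libraries of the higher group lay above all of the lower for 17.8% of genes among the WT libraries and 21.7% among the cKO libraries. Hsd3b6 is counted in these values, but it passed the filter on low values only through the libraries with high Kit. Its part in them therefore carries no weight. Taken as labelled, cKO against WT gave 10 genes higher in KIT+ (3.43 for Nr5a1 to 5.91 for Cyp17a1), where 12.4% of genes were called higher, and 10 lower in THY1+ (-1.73 for Nr5a1 to -5.41 for Ren1), where 11.3% were called lower. In these labelled comparisons, genotype and marker level cannot be told apart. Libraries with the same marker levels were therefore compared: cKO KIT+ with the WT libraries labelled THY1+, and cKO THY1+ with the WT libraries labelled KIT+.

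**Figure D2:**
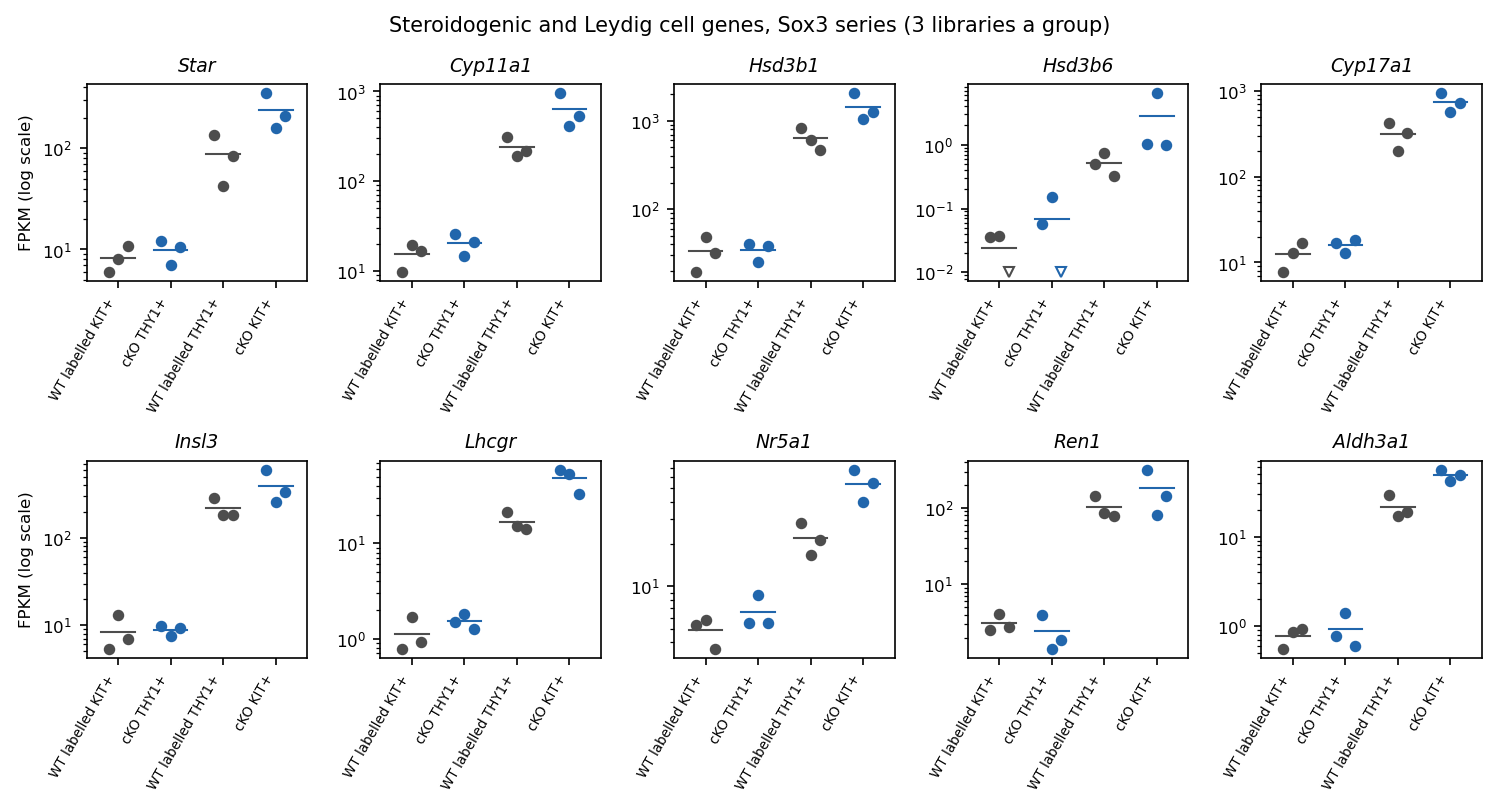
FPKM on a log scale of the 10 genes in the 12 libraries of the Sox3 table, 1 point per library, with the group mean as a bar (3 libraries a group; open triangles are libraries listed at 0), ordered as WT labelled KIT+, cKO THY1+, WT labelled THY1+ and cKO KIT+. The first 2 groups overlap in every panel, and the cKO KIT+ libraries lie above all WT libraries labelled THY1+ for 8 of the 10 genes.

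Nr5a1 was at 28.2, 16.8 and 21.3 FPKM in WT labelled THY1+ and at 67.5, 40.0 and 54.5 in the cKO KIT+ libraries. In the low-Kit libraries it was at 5.31, 5.77 and 3.59 FPKM (WT labelled KIT+) and 5.52, 8.71 and 5.52 (cKO THY1+). The cKO KIT+ libraries lay above all others, and the low-Kit groups overlapped. Lhcgr was at 21.4, 15.1 and 14.0 FPKM in WT labelled THY1+ and at 59.0, 53.5 and 32.9 in cKO KIT+. It was at 0.780, 1.68 and 0.920 FPKM in WT labelled KIT+ and at 1.49, 1.81 and 1.26 in cKO THY1+. The genotypes did not overlap in the high-Kit libraries and overlapped in the low-Kit libraries.

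Star was at 136, 42.1 and 84.1 FPKM in WT labelled THY1+ and at 348, 158 and 207 in cKO KIT+. It was at 5.94, 8.06 and 10.8 FPKM in WT labelled KIT+ and at 12.1, 7.04 and 10.6 in cKO THY1+. The high-Kit groups did not overlap, and the low-Kit groups did. Cyp11a1 was at 312, 191 and 215 FPKM in WT labelled THY1+ and at 951, 407 and 539 in cKO KIT+. It was at 9.62, 19.5 and 16.7 FPKM in WT labelled KIT+ and at 25.6, 14.6 and 21.0 in cKO THY1+. In both high-Kit groups replicate 1 was the highest of the 3. Cyp17a1 was at 421, 200 and 322 FPKM in WT labelled THY1+ and at 928, 566 and 709 in cKO KIT+. It was at 7.67, 12.9 and 16.8 FPKM in WT labelled KIT+ and at 17.0, 12.8 and 18.3 in cKO THY1+. Replicate 1 was again the highest of each high-Kit group, which did not overlap.

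Hsd3b1 was at 824, 606 and 472 FPKM in WT labelled THY1+ and at 2053, 1050 and 1263 in cKO KIT+. It was at 19.1, 48.0 and 31.7 FPKM in WT labelled KIT+ and at 40.3, 25.2 and 37.6 in cKO THY1+. In cKO KIT+ it stood at place 15 among 21688 genes by mean FPKM, against 40 in the WT libraries labelled THY1+. Hsd3b6 was at 0.505, 0.734 and 0.328 FPKM in WT labelled THY1+ and at 1.04, 6.33 and 0.985 in cKO KIT+. The low-Kit libraries held 2, 1 and 0 reads (WT labelled KIT+) and 3, 3 and 0 reads (cKO THY1+) of it. The second cKO KIT+ library, with 135 reads, stood apart, and its Hsd3b6 was 0.603% of its Hsd3b1 where the other 5 high-Kit libraries had 0.0507 to 0.121%. Summed reads per depth differed 34.7-fold between the cKO fractions (209 against 6 reads, exact 95% interval 15.7 to 95.6) and 18.5-fold between the WT libraries labelled THY1+ and KIT+ (55 against 3, 6.01 to 92.5). Without the second cKO KIT+ library the former was 15.9 (74 against 6, 6.97 to 44.7), without the first it was 56.7 (25.5 to 157) and without the second cKO THY1+ library 54.6 (18.4 to 267), again chosen after seeing the data. Here too Hsd3b6 passed the filter on low values only through its high-Kit libraries.

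Insl3 was at 289, 185 and 183 FPKM in WT labelled THY1+ and at 602, 258 and 338 in cKO KIT+. It was at 5.34, 12.9 and 6.97 FPKM in WT labelled KIT+ and at 9.74, 7.58 and 9.18 in cKO THY1+. The lowest cKO KIT+ library lay below the highest WT library, so the high-Kit groups overlapped. Ren1 was at 141, 85.2 and 78.8 FPKM in WT labelled THY1+ and at 315, 81.2 and 145 in cKO KIT+. It was at 2.50, 4.09 and 2.79 FPKM in WT labelled KIT+ and at 3.95, 1.42 and 1.89 in cKO THY1+. Its second cKO KIT+ library lay below 2 of the 3 WT libraries. Aldh3a1 was at 29.2, 16.9 and 19.2 FPKM in WT labelled THY1+ and at 56.2, 42.6 and 49.2 in cKO KIT+. It was at 0.555, 0.863 and 0.916 FPKM in WT labelled KIT+ and at 0.768, 1.40 and 0.598 in cKO THY1+. Its cKO KIT+ libraries lay close together and above all WT libraries.

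Between the high-Kit libraries, 7 of the 10 genes were called higher in cKO KIT+ than in the WT libraries labelled THY1+, where 12.4% of 21212 genes were called higher. These were Star by 1.52 ± 0.41 (log2; limma, adjusted p = 0.0214), Lhcgr 2.83-fold with a 95% interval of 1.82 to 4.40 (0.00562), Cyp11a1 by 1.34 ± 0.35 (0.0175), Nr5a1 by 1.29 ± 0.26 (0.00696), Cyp17a1 by 1.26 ± 0.32 (0.0162), Aldh3a1 by 1.21 ± 0.29 (0.0131) and Hsd3b1 by 1.18 ± 0.35 (0.0310). Hsd3b6 (1.73 ± 0.60, adjusted p = 0.0566), Insl3 (0.81 ± 0.35, 0.110) and Ren1 (0.66 ± 0.47, 0.331) did not pass, and the 95% interval of Ren1 ran from -0.37 to 1.68. The median of the 10 was 1.27. All 3 cKO libraries lay above all 3 WT libraries for 8 genes, where 22.8% of all genes did so. The call rested on single libraries: without WT labelled THY1+ replicate 2, 2 genes passed (Lhcgr and Nr5a1), without cKO KIT+ replicate 1, 4 passed (Lhcgr, Nr5a1, Aldh3a1 and Hsd3b6), and with the shallower replicates 2 and 3 alone, a choice made after seeing the data, 4 passed. Of all genes, 11.0%, 12.2% and 4.65% were called in either direction in these 3 fits. The full fit called 12.4% higher and a further 4.57% lower, so calls over all genes fell as well.

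Between the low-Kit libraries, cKO THY1+ against WT labelled KIT+, 0 of the 10 genes passed (limma, differences from -0.45 for Ren1 to 0.46 for Lhcgr, median 0.31, smallest adjusted p = 0.512), and 0.0707% of genes were called in either direction. None of the 10 was at an unadjusted p under 0.05, where 13.2% of genes were, and the groups overlapped for all 10, where 7.59% of genes had all cKO libraries above all WT libraries. The 95% intervals allow changes of -0.18 to 1.09 for Lhcgr and of -1.48 to 0.57 for Ren1. Averaged over both fractions, which gives the same value whichever way the WT labels are read, 6 genes were called higher in cKO mice, where 7.49% of genes were: Lhcgr by 0.98 ± 0.21 (limma, adjusted p = 0.00755), Star by 0.89 ± 0.29 (0.0447), Cyp11a1 by 0.89 ± 0.24 (0.0230), Nr5a1 by 0.85 ± 0.19 (0.00906), Cyp17a1 by 0.84 ± 0.22 (0.0208) and Aldh3a1 by 0.69 ± 0.21 (0.0318). Without WT labelled THY1+ replicate 2 or WT labelled KIT+ replicate 1, 3 passed, beside 7.79% and 7.98% of all genes in either direction. With replicates 2 and 3 alone 0 passed, beside 2.81% in either direction. These shares are not comparable with the 7.49%, which counts higher calls only. Calls of the full fit in either direction are given with the dependence on processing. The comparisons of the Sox3 table share libraries, and the plot of genotype differences sets the 4 same-marker comparisons of both tables side by side.

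**Figure D3:**
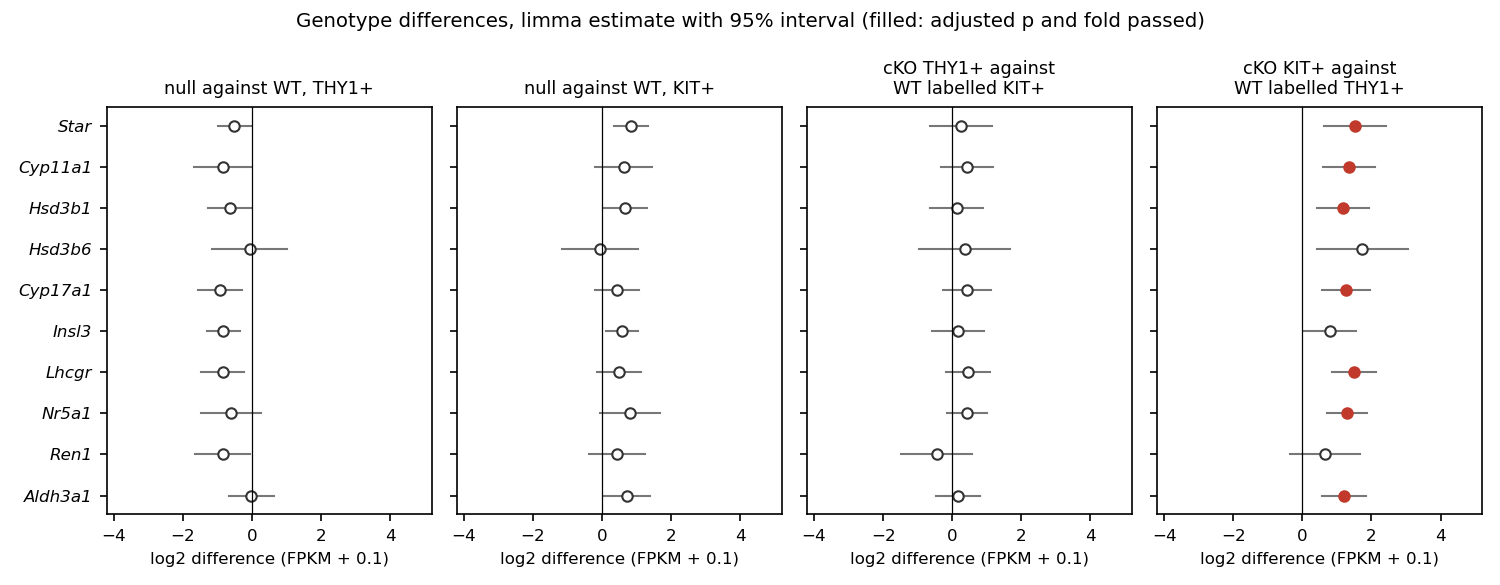
Log2 difference between genotypes of the 10 genes in 4 comparisons (limma, with the 95% interval as a line, 3 libraries a group), with filled points for genes that passed the test. The fits are those without a replicate block, and with the block some genes of null against WT mice also passed, as given in the text. The 7 filled points are all in the comparison of cKO KIT+ with the WT libraries labelled THY1+. Points of null against WT mice lie above 0 in KIT+ for 9 genes and below 0 in THY1+ for 10.

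Genes of related lists outside the 10 also differed between the high-Kit libraries, where 12.4% of all genes were called higher and 4.57% lower. Of 20 genes of luteinizing hormone signalling and Leydig cell regulation, 12 were called higher and 0 lower (median 1.03), among them Prlr, the prolactin receptor (1.94 ± 0.28), Insr, the insulin receptor (1.41 ± 0.17), Lhx9 (1.41 ± 0.25) and Nr2f2 (1.35 ± 0.22). Unlike the 10 genes, Lhx9 and Nr2f2 had lower means in WT KIT+ (1.57 and 5.75 FPKM) than in WT THY1+ (3.22 and 9.76). In null mice their means were higher in KIT+ (2.99 and 9.37 FPKM) than in THY1+ (2.19 and 5.46). Of 10 cholesterol supply genes, 4 were called higher, among them Soat1 (2.30-fold), Scarb1 (1.14, log2) and Vdac1 (0.98, log2). Of 5 electron donors, 3 were called higher (Fdxr 1.03, Cyb5a 0.89 and H6pd 0.73), as were 3 of 4 adrenal-type genes (Cyp11b1 1.63, Cyp21a1 1.54 and Mrap 1.37) and 2 of 7 tested other steroid enzymes (Akr1c14 1.22 and Srd5a1 0.84). In null against WT KIT+ libraries, 0 genes of these lists passed the test, as the plot of list genes shows.

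**Figure D4:**
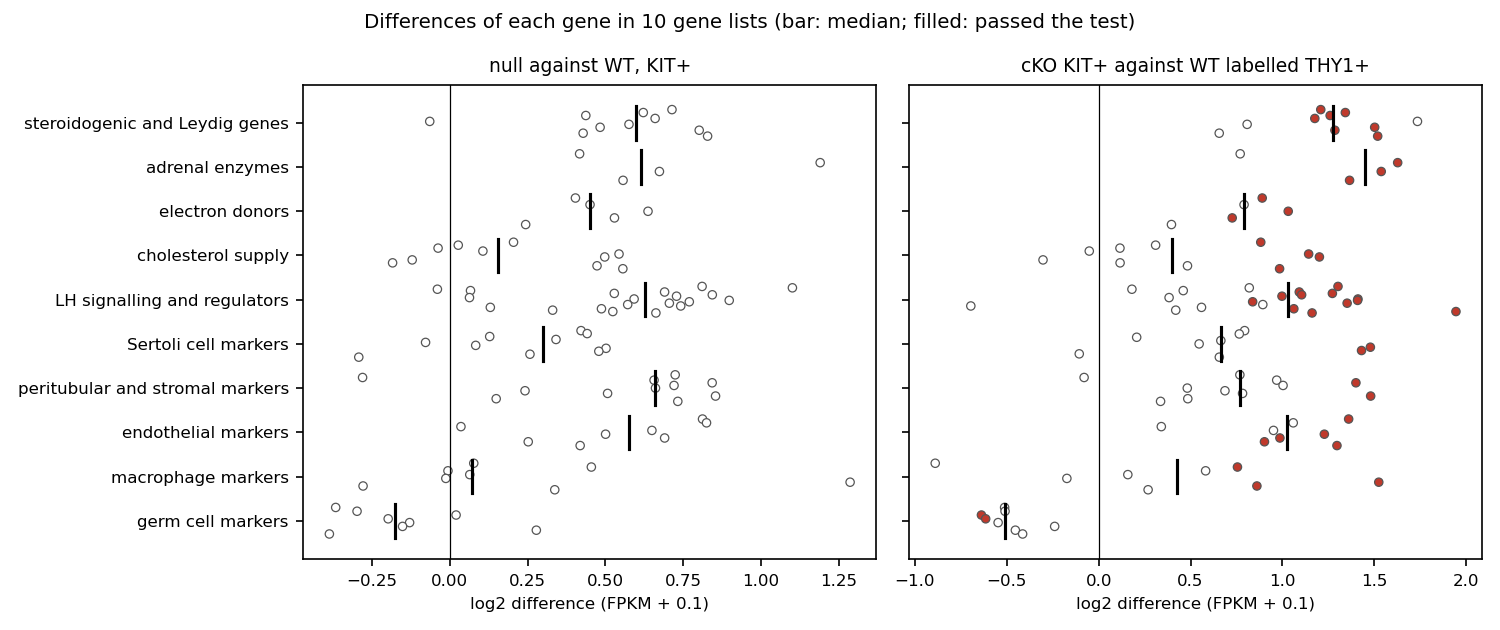
Log2 difference of each gene (point) of 10 lists, with the list median as a bar, for null against WT KIT+ libraries and for cKO KIT+ against WT libraries labelled THY1+ (3 libraries a group; the x axes of the panels differ in scale). The median of the 10 genes is 0.60 in the first and 1.27 in the second, and those of endothelial (0.58 and 1.02) and stromal markers (0.66 and 0.77) are also above 0.

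Markers of other cells moved with the cKO KIT+ result, and their part in it was not tested. Their counts stand beside the same 12.4% of all genes called higher and 4.57% called lower. The sum of 8 endothelial markers was 28.4 to 36.0 FPKM in WT labelled THY1+ and 46.3 to 81.6 in cKO KIT+, with 5 of 8 called higher, and the stromal sum was 165 to 255 and 361 to 441, with 2 of 11 called higher. The Sertoli sum was 46.8 to 58.5 and 80.2 to 108 FPKM, with 2 of 9 called higher, and the macrophage sum was 6.88 to 7.23 and 8.26 to 9.13, with 3 of 8 called higher. Germ cell markers went the other way, with 8 of 8 lower, 2 called (Dnd1 by -0.64 and Mael by -0.61) and a median of -0.51. Stra8, Sohlh1 and Sohlh2, 3 of 5 differentiating spermatogonia markers, were also called lower. The geometric mean of the germ cell markers was 71.2 to 98.4 FPKM in WT labelled THY1+ and 44.6 to 68.0 in cKO KIT+. The 10 genes took 0.325 to 0.551% of the reads of the former and 0.709 to 1.41% of the latter.

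Within the 12 libraries with high Kit, 9 of the genes (Hsd3b6 left out for its low reads) kept a fairly fixed ratio to each other, as the plot of relative levels shows. Each gene was expressed as its log2 FPKM less the mean log2 FPKM of the other 8, and the SD of this value over the 12 libraries was 0.20 for Cyp17a1 and Aldh3a1, 0.21 for Hsd3b1, 0.24 for Cyp11a1 and Insl3 and 0.26 for Nr5a1, while the SD of the log2 levels themselves was 0.53 to 0.82. The ratio was looser for Lhcgr (0.41), Ren1 (0.43) and Star (0.47). Lhcgr stood at -2.03 on average in WT KIT+ and at -2.81 in the WT libraries labelled THY1+ of the other table, and the tables were normalized apart. Ren1 ranged from -1.11 to 0.02 within cKO KIT+. Star ranged from -1.16 to 0.00 within WT KIT+. These ratios describe the libraries and were not tested.

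**Figure D5:**
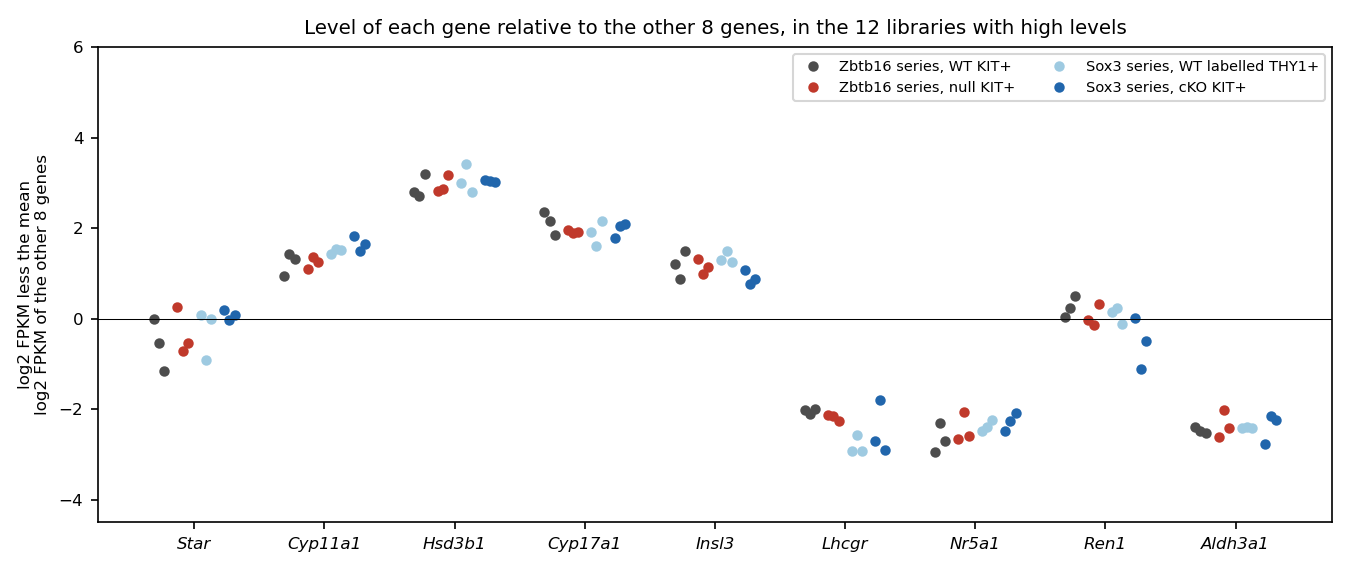
Log2 FPKM of each of 9 genes less the mean log2 FPKM of the other 8, in the 12 libraries with high Kit and low Thy1, 1 point per library. Points of Cyp17a1, Aldh3a1 and Hsd3b1 lie close together (SD 0.20 to 0.21), and those of Lhcgr, Ren1 and Star are spread more widely (SD 0.41 to 0.47).

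Across all 12 libraries of each table, other genes followed the mean log2 level of the 10. Over 15845 genes with a mean of at least 1 FPKM in both tables, likeness was taken as the lower of both tables' Pearson correlations with that mean, and since the libraries fall into high-Kit and low-Kit sets, r mostly reflects that shared split. Highest among the genes outside the 10 were Cst8 (r = 0.997), Hao2 (0.994), Jak3 (0.994) and Aldh1a1 (0.992), followed by AU021092, Folr1, Oxtr, Fabp3, Adh1 and Myh7 (0.991 to 0.989). Hao2 lies 14.7 kb from Hsd3b1 on chromosome 3, and Jak3 shares exon bases with Insl3. Hsd3b6 was under the minimum of 1 FPKM and was not ranked. Of the other 9 genes, Hsd3b1 ranked 2 and Nr5a1 79 by the same measure (r = 0.996 and 0.971), but each is part of the mean it was compared with.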

How the data were processed

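RNA from THY1+ and KIT+ cells of P7 testes was sequenced as stranded, rRNA-depleted libraries with 50-cycle single reads. The deposited values are FPKM, which the authors computed per Ensembl gene after alignment to mm10 with Novoalign and counting with USeq. Whether counting used strand is not given in the sources used here. Each table was analysed alone. Log2(FPKM + 0.1) of genes with a mean of at least 0.1 FPKM over the 12 libraries (22374 and 21212 genes) was fitted with group means in limma 3.58.1 (R 4.3.3; trend and robust variances), with Benjamini-Hochberg adjustment over all genes tested. A gene was called at an adjusted p of at most 0.05 and at least 1.5-fold, and fold changes of low genes are understated on this scale. The members and lists were chosen with earlier results of these data known. All 10 members are described, and list genes are named if called (up to 4 a list). Depth was recovered from low FPKM values and exon lengths (83.7 to 86.4% whole within 0.1 read). Same-numbered libraries were taken as paired where every correlation of their deviations was over 0.1: null with WT in each fraction, null KIT+ with null THY1+, and cKO THY1+ with WT labelled KIT+. The fit was tested on simulated data.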

Additional observations from a re-analysis of the deposited data

Results flagged for a closer look

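Insl3 differed in direction between fractions. In every null THY1+ library it lay below all WT THY1+ libraries, and in every null KIT+ library above all WT KIT+ libraries. The null effect in KIT+ less that in THY1+ was 1.40 ± 0.31 (log2; limma, adjusted p = 0.0930), so this difference did not pass the test. Most of the other genes had differences of similar size. That of Insl3 passed with scaling to germ cell markers, where it was 1.78, as did those of other members and 12.6% of all genes in either direction. It also passed without null KIT+ replicate 1, where 3.88% of all genes did. Of the Insl3 exon bases, 64.8% are also Jak3 exon, and the part of Jak3 reads in this value was not tested.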

How the results depend on the processing

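Other pseudocounts (0.01, 1), no filter on low values or one at 1 FPKM, quantile normalization, scaling to 8 germ cell markers, the replicate block, a fit of the 6 libraries alone and leaving out each library gave 199 values of the number of members called, of which 185 stayed within 1.5 times the reported number, 8 were higher and 6 lower. These values pool the fraction comparisons, where all 10 genes had passed, with the genotype comparisons. The pooled count therefore says little about the genotype counts, which are given apart. Between fractions 10 genes passed, or 9 of 9 tested with a mean of at least 1 FPKM, and 9 to 10 with single libraries left out in the Sox3 table.

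For null against WT THY1+ (0 reported), scaling to germ cell markers gave 4, the replicate block 6, and leaving out a library 0 to 3. For null against WT KIT+ (0), the block gave 1, and block and germ cell scaling together, chosen after seeing the data, gave 5. For the interaction (0), germ cell scaling gave 6, the block 8 and leaving out a library 0 to 1. For cKO KIT+ against WT labelled THY1+ (7), replicates 2 and 3 alone, chosen after seeing the data, gave 4 and leaving out a library 2 to 7. For the averaged effect (6), these gave 0 and 3 to 6. The numbers do not pair the samples in the interaction and in the last 2, and the block changed no call in the other paired comparisons. The cause of these moves was not tested, and the reduced fits also have fewer samples.

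Germ cell scaling moved the median of all genes by -0.25 and 0.15 (null against WT THY1+ and KIT+), 0.37 (interaction), 0.31 (averaged) and 0.48 (cKO KIT+ against WT labelled THY1+). Over all genes, calls went from 890 to 1715 with that scaling and 1980 with the block (null against WT THY1+), from 58 to 513 with the block and 1849 with both (KIT+), from 7 to 2819 and 2756 (interaction), from 3608 to 6843 with the scaling and 987 with replicates 2 and 3 (cKO KIT+), and from 2188 to 4373 and 597 (averaged). A pseudocount of 1 gave 565, 25, 45 and 1024 calls in null against WT THY1+ and KIT+, the interaction and the averaged effect.

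Directions turned only in differences that had not passed. Hsd3b6 became 0.18 (pseudocount 0.01) and -0.22 to 0.25 without single libraries in null against WT THY1+, 0.071 under germ cell scaling with or without the block and -0.38 to 0.49 in KIT+, and -0.25 (pseudocount 0.01), -0.033 (pseudocount 1) and -0.31 to 0.56 in the interaction. Aldh3a1 became 0.021 (quantile normalization) and -0.19 to 0.18 in null against WT THY1+. Ren1 became -0.30 with replicates 2 and 3 alone and -0.15 to 0.33 in the averaged effect. In cKO THY1+ against WT labelled KIT+, replicates 2 and 3 alone gave Star -0.11, Cyp11a1 -0.045, Hsd3b1 -0.34 and Insl3 -0.18, and single libraries left out gave Hsd3b1 -0.21 to 0.45, Insl3 -0.11 to 0.52 and Aldh3a1 -0.15 to 0.41.

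Each group has 3 libraries, and replicates 2 and 3 of the Sox3 table are shallower. The tables were normalized apart, so levels were not tested between them.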
